A study of Mus musculus with 12 samples.

Results

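The genes described here are the angiogenic factors and endothelial genes Vegfa, Kdr, Flt1, Tek, Angpt1, Angpt2, Pecam1, Cdh5, Apln and Aplnr, chosen by name as a ligand, a receptor or an endothelial junction gene of blood vessel growth. Each of the 10 genes was measured by 1 probe of the 36227 on the array, and each of these probes is named for that gene alone. Ovaries were taken from 180-day old LY mice (C57BL/6J Ay/a), 180-day old black littermates (C57BL/6J a/a), 90-day old LY mice and 90-day old black mice, with 3 females in each of the 4 groups and 1 array per mouse. The sample labels write the strain as C56BL/6J, and the series' design text as C57BL/6J. LY, lethal yellow, is a mutation that places the agouti gene under the promoter of an upstream gene, so that agouti is made throughout the body of both young and old carriers, and the mice become obese as adults. Every mouse, black mice included, had received the GnRH antagonist Antide at 10 μg/g body weight on days 1 and 4 and then equine chorionic gonadotropin (eCG) at 1 IU/5 g body weight, and its ovaries were collected 36 h after eCG. All levels are therefore those of suppressed and then stimulated ovaries, and no untreated ovary was compared. The question put to the arrays was how the ovary of an obese LY mouse departs from that of a lean black mouse, and whether it does so before obesity has set in.

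New vessels grow each cycle around the developing follicle and into the corpus luteum. VEGF-A, secreted by follicular cells, acts on endothelial cells through Kdr (VEGFR2), which drives their growth and migration, while Flt1 (VEGFR1) binds the ligand tightly and limits its action. Angiopoietin-1 activates the endothelial receptor Tek (Tie2) and steadies vessels, angiopoietin-2 mostly opposes it and loosens them, and apelin acts through the receptor Aplnr on endothelial cells of growing vessels.

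The region just before the gene start was shown for the members whose LY and black arrays did not overlap at 90 days, all of which read lower in LY there. RefSeq promoter windows (build GRCm38.p6) matched 5 of the 10 members, and 4 of the 5 members without overlap had one. The 250 bases before the start are given 5′ to 3′ in the direction of the gene, in lower case, with every match to a searched motif in capitals. Vegfa lies at chr17:46032378-46032627, Apln at chrX:48034854-48035103, Kdr at chr5:75978456-75978705 and Flt1 at chr5:147726012-147726261, all on the minus strand. For Vegfa, which has more than 1 window, the most upstream start was used.
Vegfa: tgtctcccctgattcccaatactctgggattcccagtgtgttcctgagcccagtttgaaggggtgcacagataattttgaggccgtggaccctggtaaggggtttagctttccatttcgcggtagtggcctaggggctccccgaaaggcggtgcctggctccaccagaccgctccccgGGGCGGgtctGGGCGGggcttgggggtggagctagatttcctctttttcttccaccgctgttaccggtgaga
Apln: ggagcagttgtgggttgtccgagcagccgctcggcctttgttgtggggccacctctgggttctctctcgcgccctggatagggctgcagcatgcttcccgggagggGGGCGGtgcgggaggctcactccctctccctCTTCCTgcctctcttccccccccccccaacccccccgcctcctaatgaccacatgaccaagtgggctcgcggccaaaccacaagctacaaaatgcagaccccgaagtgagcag
Kdr: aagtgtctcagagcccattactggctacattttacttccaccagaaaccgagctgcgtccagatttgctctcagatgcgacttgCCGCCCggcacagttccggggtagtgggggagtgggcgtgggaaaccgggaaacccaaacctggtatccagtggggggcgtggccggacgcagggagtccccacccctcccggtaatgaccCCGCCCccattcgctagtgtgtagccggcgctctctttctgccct
Flt1: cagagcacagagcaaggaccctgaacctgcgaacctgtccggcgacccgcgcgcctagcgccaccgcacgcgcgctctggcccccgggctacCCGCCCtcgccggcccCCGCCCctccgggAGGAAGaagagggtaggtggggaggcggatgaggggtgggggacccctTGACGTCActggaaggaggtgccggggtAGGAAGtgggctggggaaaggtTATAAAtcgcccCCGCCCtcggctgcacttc

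Both strands were searched for 5 motifs, and no 2 matches overlapped. The GC box, spelled GGGCGG, was found in all 4 windows, and it is held by 32.7% of the 32817 windows of this length. A spelling of the core bound by ETS factors, AGGAAG, was found in the windows of Flt1 and Apln and is held by 29.5% of all windows. Other spellings of that core were not searched. The TATA box, spelled TATAAA, was found in the window of Flt1 alone among the 4, against 12.4% of all windows. The cyclic AMP response element, spelled TGACGTCA, was likewise found in Flt1 alone, against 1.55% of all windows. The core of the hypoxia-response element, spelled ACGTG, was in none of the 4 windows and is held by 16.6% of all windows. Sequence farther upstream of these genes was not searched, so this absence holds only for the windows shown. These are matches of letters and not sites of binding.

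The LY label was checked on the agouti probe, which read 95.7 to 111 units on the 6 LY arrays, against 0.169 to 0.368 units on the 6 black arrays. A unit is relative fluorescence intensity, scaled so that the median probe of an array reads 1, and the study takes 0.2 units as its limit of sensitivity. Between 80.8% and 83.3% of the values on an array reached that limit. The correlation of 2 arrays was 0.970 to 0.987 inside a group, 0.963 to 0.984 across genotypes of the same age and 0.918 to 0.938 across ages. The 180-day arrays were run as the initial experiment and the 90-day arrays later, and the effects of age and of array set cannot be told apart. The 90-day black replicate 3 correlated best with a 90-day LY array, and the main results at 90 days are also given without it.

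Of the 10 members, Vegfa, Kdr, Tek, Angpt2, Pecam1, Apln and Aplnr read above the limit on all 12 arrays. Flt1 did so on 5 arrays, Angpt1 on 4 and Cdh5 on 3. Angpt1 did not reach a mean of 0.2 units in any group and was not tested, so that 9 of the 10 members were among the 31598 probes tested. As a check of the tissue, 7 of 8 endothelial markers (Pecam1, Kdr, Tek, Tie1, Emcn, Esam and Cldn5) read above the limit on every array, and Cdh5, a junction protein that defines endothelium, was the exception. In RNA of a whole ovary, fewer endothelial cells and less RNA per cell cannot be told apart.

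**Figure D1:**
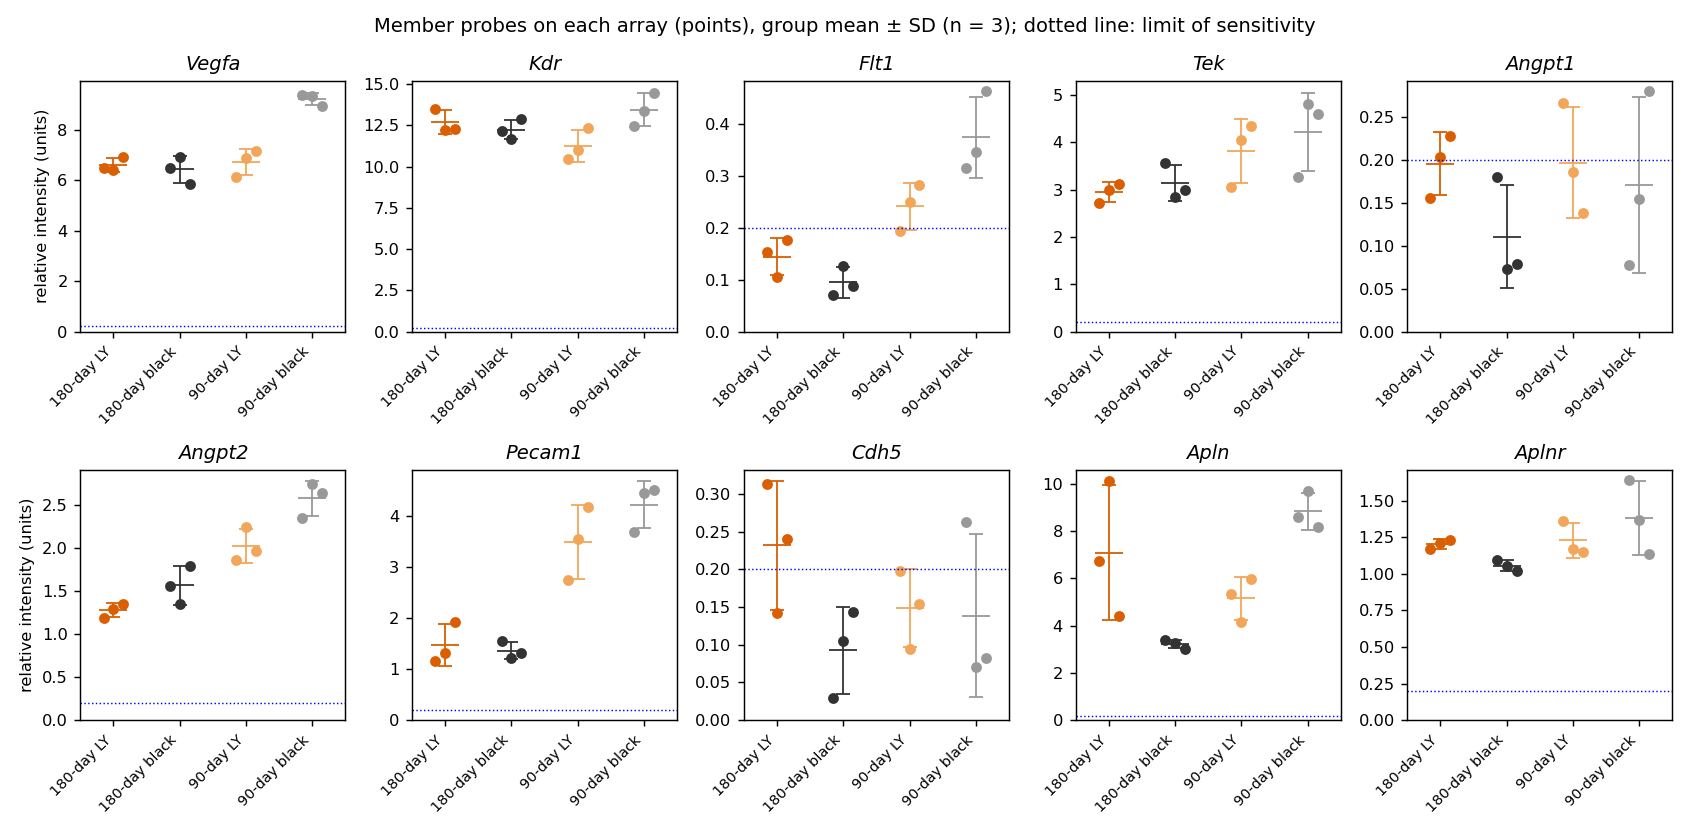
Relative intensity (units, linear axis from 0) of the 10 members on each of the 12 arrays, with points for single mice and bars for the group mean ± SD (n = 3), and a dotted line at the limit of sensitivity of 0.2 units. The 90-day black arrays of Vegfa stand above the other 3 groups, the LY and black arrays of Apln are apart in opposite directions at the 2 ages, and Flt1, Angpt1 and Cdh5 lie around or under the limit.

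Among the ligands, Vegfa stood out at 90 days. Its probe read 6.48, 6.42 and 6.92 units in 180-day LY ovaries and 6.50, 6.93 and 5.84 units in 180-day black ovaries. It read 6.13, 6.87 and 7.14 units in 90-day LY ovaries and 9.38, 9.35 and 8.95 units in 90-day black ovaries. The genotypes overlapped at 180 days, whereas at 90 days each LY array lay below each black array. The means were 6.61 ± 0.275 and 6.42 ± 0.550 units in LY and black mice at 180 days, and 6.72 ± 0.522 and 9.23 ± 0.236 units in LY and black mice at 90 days (SD, n = 3 each). The 90-day black group was thus the highest of the 4, and the other 3 groups did not differ beyond their spread. LY minus black was -0.46 on the log2 scale at 90 days (SE 0.09, limma adjusted p = 0.0891), a mean 27.2% lower in LY, and 0.04 at 180 days (SE 0.09, adjusted p = 0.887). Neither passed the threshold of 0.05 after the Benjamini-Hochberg adjustment over all probes tested. Without 90-day black replicate 3 the 90-day difference was -0.48 (adjusted p = 0.0997). The difference of the LY effect between the ages was 0.50 (SE 0.13, limma adjusted p = 0.168). With an intensity trend in the variance model the 90-day difference did pass (adjusted p = 0.0439), and over all alternatives its adjusted p ranged from 0.0439 to 0.447.

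Apln, which encodes the apelin ligand, was the member with the largest genotype difference at each age among those above the limit on all arrays, and it was opposite at the 2 ages. It read 6.74, 10.1 and 4.42 units in 180-day LY ovaries, against 3.39, 3.27 and 3.02 units in 180-day black ovaries. At 90 days it read 5.33, 4.15 and 5.98 units in LY ovaries, against 8.61, 9.71 and 8.19 units in black ovaries. The LY arrays therefore lay above all black arrays at 180 days and below all of them at 90 days. The 3 LY mice of 180 days differed widely among themselves, with a mean of 7.09 ± 2.86 units, against 3.23 ± 0.188 units in black mice of that age (SD, n = 3 each). At 90 days the mean was 5.15 ± 0.923 units in LY mice and 8.84 ± 0.786 units in black mice (SD, n = 3 each). In the order of levels the 180-day black group was the lowest, the 2 LY groups overlapped each other, and the 90-day black group overlapped the 180-day LY group through 180-day LY replicate 2. LY minus black was 1.06 on the log2 scale at 180 days (SE 0.25, limma adjusted p = 0.159), a 2.08-fold higher level, and -0.79 at 90 days (SE 0.25, limma adjusted p = 0.225), a 1.73-fold lower level. Without 90-day black replicate 3 the 90-day difference was -0.84 (adjusted p = 0.209). The difference of the LY effect between ages was 1.85 (SE 0.35, 95% interval 1.07 to 2.62, unadjusted p = 0.000316), which took place 98 among the 31598 probes and had a limma adjusted p of 0.0983. It passed the threshold with a filter at 0.5 units (adjusted p = 0.0453) and with an intensity trend (adjusted p = 0.0248), and its adjusted p ranged from 0.0248 to 0.250 over all alternatives. The 180-day difference was 0.76 without 180-day LY replicate 2, the highest array, and 1.36 without 180-day LY replicate 3, the lowest.

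Of the 3 steroidogenic markers tested, 2 had estimates of the same sign as Apln at both ages. Star, which carries cholesterol into the mitochondrion, was 0.91 higher in LY at 180 days (adjusted p = 0.168) and 0.50 lower at 90 days on the log2 scale (log2 difference -0.50, limma adjusted p = 0.360), and Cyp11a1, which cleaves its side chain, differed by 0.49 and -0.37 (adjusted p = 0.218 and 0.292). Cyp17a1, an enzyme of androgen synthesis in theca cells, differed by 0.49 at 180 days and 0.45 at 90 days (adjusted p = 0.562 and 0.563), so at 90 days its sign was opposite to that of Apln. The summed level of the 3 theca and steroidogenic markers with a probe was 229 to 369 units in LY and 184 to 241 units in black ovaries at 180 days, and 283 to 302 units in LY and 232 to 375 units in black ovaries at 90 days. Cyp17a1 averaged 185 of the 305 units of this sum in LY and 130 of 208 units in black at 180 days. None of these markers lay under the limit on all arrays of a group, and their part in the Apln values was not tested.

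The angiopoietins differed in how far they could be measured. Angpt2 read 1.19, 1.30 and 1.35 units in 180-day LY ovaries, against 1.56, 1.35 and 1.80 units in 180-day black ovaries. In 90-day ovaries it read 1.86, 2.25 and 1.96 units in LY, against 2.35, 2.75 and 2.64 units in black. The LY arrays were below all black arrays at 90 days, and at 180 days the highest LY array and the lowest black array were level. LY minus black for Angpt2 was of like size at the 2 ages, with log2 differences of -0.29 at 180 days (SE 0.12, limma adjusted p = 0.390) and -0.35 at 90 days (SE 0.12, limma adjusted p = 0.261), the last being -0.33 without 90-day black replicate 3. Over both ages LY minus black was -0.32 (SE 0.09, 95% interval -0.51 to -0.13, unadjusted p = 0.00389, limma adjusted p = 0.180). The difference of the LY effect between ages was 0.06 (95% interval -0.32 to 0.45, adjusted p = 0.920). Angpt1 read 0.155 to 0.228 units in 180-day LY, 0.0727 to 0.180 units in 180-day black, 0.139 to 0.267 units in 90-day LY and 0.0775 to 0.281 units in 90-day black ovaries. As these values lie around and under the limit, no fold is given.

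The receptors showed smaller differences. Kdr read 13.5, 12.2 and 12.3 units in 180-day LY ovaries, against 12.1, 11.7 and 12.9 units in 180-day black ovaries. In 90-day ovaries it read 10.4, 11.0 and 12.3 units in LY, against 12.5, 13.4 and 14.5 units in black. The groups overlapped at 180 days and did not at 90 days, where the nearest arrays were 12.3 units in LY and 12.5 units in black. LY minus black for Kdr was 0.05 at 180 days (SE 0.09, limma adjusted p = 0.872) and -0.26 at 90 days (SE 0.09, limma adjusted p = 0.288), and -0.20 at 90 days without 90-day black replicate 3. The difference of its LY effect between ages was 0.31 (95% interval 0.01 to 0.60, unadjusted p = 0.0438, limma adjusted p = 0.391).

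Flt1 was under the limit on all 6 arrays of 180 days, with 0.153, 0.104 and 0.176 units in LY and 0.0699, 0.126 and 0.0872 units in black ovaries, so no fold between the genotypes is given at that age. At 90 days it read 0.193, 0.250 and 0.282 units in LY ovaries, against 0.314, 0.347 and 0.463 units in black ovaries, without overlap. LY minus black at 90 days was -0.63 (SE 0.26, limma adjusted p = 0.335), and -0.47 without 90-day black replicate 3. At 90 days each LY array of Kdr and of Flt1 thus lay below each black array, which held for 9.38% of all probes. The lowest LY array of Flt1, at 0.193 units, was under the limit, and neither difference passed the threshold.

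Tek read 2.71 to 3.12 units in 180-day LY and 2.84 to 3.56 units in 180-day black ovaries, and 3.05 to 4.34 units in 90-day LY and 3.27 to 4.80 units in 90-day black ovaries. The genotypes overlapped at both ages, with log2 differences of -0.09 at 180 days (95% interval -0.47 to 0.30, adjusted p = 0.882) and -0.14 at 90 days (95% interval -0.53 to 0.24, limma adjusted p = 0.773). Aplnr, the apelin receptor, read 1.17, 1.21 and 1.23 units in 180-day LY ovaries, against 1.09, 1.05 and 1.02 units in 180-day black ovaries. These arrays did not overlap, but the difference was small, 0.19 on the log2 scale (SE 0.13, 95% interval -0.09 to 0.47, limma adjusted p = 0.587). At 90 days Aplnr read 1.36, 1.17 and 1.15 units in LY and 1.64, 1.37 and 1.14 units in black ovaries, which overlapped (log2 difference -0.16, limma adjusted p = 0.629). Apln and Aplnr were each higher on every LY array at 180 days, with a ratio of the means of 2.20 for Apln and 1.14 for Aplnr. At that age 22.4% of all probes had no overlap between LY and black, in either direction, so no joint change is read from this.

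Of the junction genes, Pecam1 (CD31) was well measured and Cdh5 (VE-cadherin) was not. Pecam1 read 1.15, 1.32 and 1.93 units in 180-day LY ovaries and 1.55, 1.22 and 1.31 units in 180-day black ovaries. It read 2.74, 3.54 and 4.17 units in 90-day LY ovaries and 3.69, 4.45 and 4.51 units in 90-day black ovaries. The genotypes overlapped at both ages, and LY minus black was 0.08 at 180 days (95% interval -0.38 to 0.54, adjusted p = 0.916) and -0.29 at 90 days (95% interval -0.75 to 0.17, limma adjusted p = 0.586). Cdh5 read 0.313, 0.143 and 0.240 units in 180-day LY ovaries and 0.0295, 0.105 and 0.143 units, all under the limit, in 180-day black ovaries. It passed the filter on low values only through the 180-day LY group, where it was highest, so its test is given no weight and no fold is given. In 90-day ovaries it read 0.0949 to 0.197 units in LY, all under the limit, and 0.0703 to 0.263 units in black.

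No member passed the adjusted test for genotype, so the counts are read against those of all probes. At 180 days 0 of 9 tested members passed, where 0.0443% of all probes did, and at 90 days 0 of 9 passed, again against 0.0443% of all probes. Over both ages 0 of 9 passed (0.00633% of all probes), and for the difference of the LY effect between ages 0 of 9 (0% of all probes). By limma's unadjusted p under 0.05, 4 members were past it at 180 days (11.9% of all probes). These were Angpt2 and Apln and also Cdh5 and Flt1, of which Cdh5 passed the filter only through 180-day LY and Flt1 was under the limit on every array of that age, so that neither counts as support. At 90 days 5 members were past it (13.2% of all probes), namely Angpt2, Apln, Flt1, Kdr and Vegfa. Over both ages it was 2, Angpt2 and Vegfa (12.9% of all probes), and for the difference between ages 4, namely Apln, Flt1, Kdr and Vegfa (12% of all probes). Flt1 does not count as support there either, since its 180-day values were all under the limit. Without adjustment, the methods' t-test at p under 0.05 called 2 members at 180 days (Apln and Aplnr), beside 4203 of the 31598 probes tested. At 90 days it called 3 (Vegfa, Angpt2 and Apln), beside 2782 of those probes. After Benjamini-Hochberg it called 0 members at either age. LY and black arrays did not overlap for 2 members at 180 days, Apln and Aplnr, against 22.4% of all probes, and for 5 members at 90 days, against 16.2% of all probes. These 5 were Angpt2, Apln, Flt1, Kdr and Vegfa, and in each LY was the lower, which held for 9.38% of all probes. Apln alone among the members was without overlap in opposite directions at the 2 ages, against 2.18% of all probes.

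**Figure D2:**
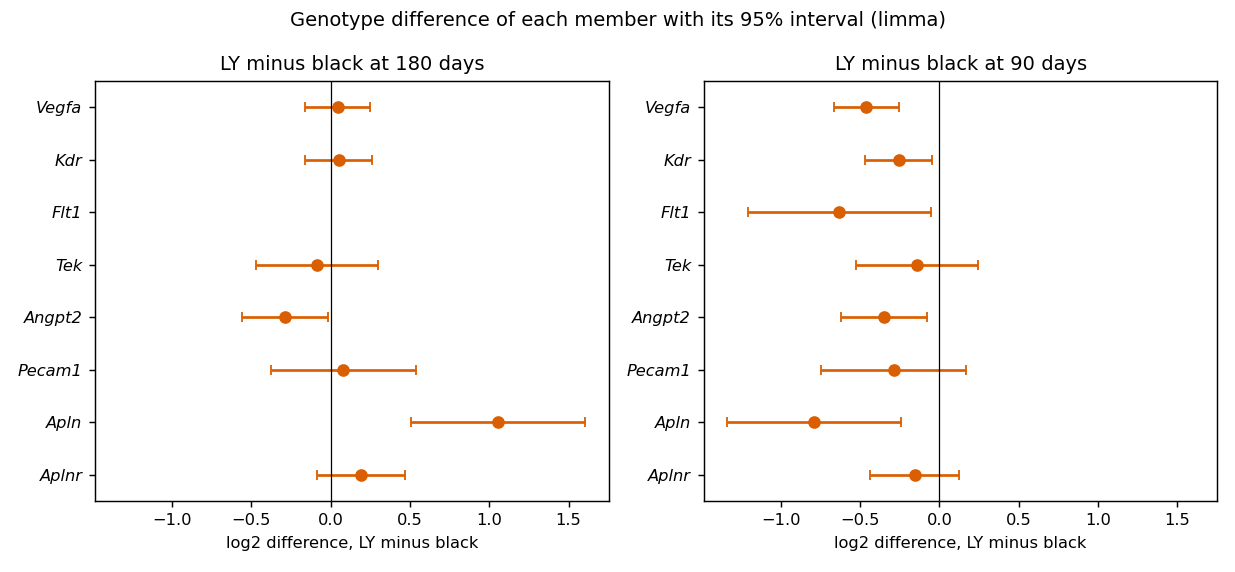
Log2 difference, LY minus black, of members at 180 days (left) and 90 days (right), as points with 95% intervals from limma before adjustment. Flt1 is left out at 180 days, where it read under the limit, and at 90 days 1 of its LY arrays was under it. Angpt1 and Cdh5, around and under the limit, are not plotted. At 90 days all 8 members plotted lie below 0, from -0.14 for Tek to -0.79 for Apln, as did 50.6% of all probes, and the estimate of Cdh5 was above 0. At 180 days Apln lies at 1.06 and the others between -0.29 and 0.19.

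Other genes of the same pathways were followed in 10 lists of 85 genes. Of the 80 genes tested, 0 passed the adjusted limma test at either age, over both ages or for the difference between ages. By unadjusted p under 0.05, 7 were higher and 3 lower in LY at 180 days, or 12.5% of those tested, and 0 higher and 11 lower at 90 days, or 13.8%. Both shares are close to those of all probes given above, taken in either direction. All 11 at 90 days were lower in LY, as were 8.02% of all probes. The share was 17.5% over both ages and 16.2% for the difference between ages, against 12.9% and 12% of all probes.

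Among the other VEGF family genes, 0 of 7 passed the test at either age and the median log2 difference was -0.05 at 180 days and -0.07 at 90 days, beside 0.03 and -0.0036 over all probes. Vegfd, a VEGF family ligand that acts on lymphatic vessels, averaged 8.54 ± 3.02 units in LY and 4.38 ± 0.976 units in black ovaries at 180 days (SD, n = 3 each; log2 difference 0.93, limma adjusted p = 0.222). At 90 days its means were level at 4.63 units in LY and 4.61 units in black. The co-receptor Nrp2 averaged 1.91 ± 0.403 units in LY and 2.77 ± 0.314 units in black ovaries at 180 days (SD, n = 3 each; log2 difference -0.55, limma adjusted p = 0.384). Vegfb differed by -0.25 at 90 days (adjusted p = 0.413).

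In the angiopoietin and Tie group, 0 of 3 genes passed. Tie1, the partner receptor of Tek, differed by -0.21 at 180 days and -0.20 at 90 days (adjusted p = 0.586 and 0.574). Ptprb, the endothelial phosphatase that restrains Tek, differed by -0.13 and -0.15 by its brightest probe. Another probe of it, with a mean of 13.1 units, gave -0.21 at 180 days and -0.05 at 90 days (limma adjusted p = 0.518 and 0.892). A dimmer probe, with a mean of 4.63 units, gave -0.44 and -0.52 (limma adjusted p = 0.128 and 0.0755). These probes disagree in size and not in direction. Apela, the other ligand of Aplnr, averaged 6.29 ± 0.362 units in LY and 6.25 ± 0.145 units in black ovaries at 180 days and 9.46 ± 0.720 units in LY and 9.69 ± 0.739 units in black ovaries at 90 days (SD, n = 3 each). Its log2 differences were 0.01 and -0.04 (adjusted p = 0.985 and 0.907).

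Mural cell genes, which mark the pericytes wrapped around vessels and the signal that recruits them, were mostly lower in LY at 90 days by their estimates. Of 8 genes tested, 0 passed the adjusted test, 7 had estimates below 0, as did 50.6% of all probes, and the median was -0.38, beside -0.0036 over all probes. By unadjusted p under 0.05, 4 of the 8 were lower in LY, as were 8.02% of all probes. Pdgfb, which endothelial cells secrete to draw pericytes in, averaged 2.59 ± 0.324 units in LY and 4.20 ± 0.463 units in black ovaries at 90 days (SD, n = 3 each; log2 difference -0.70, limma adjusted p = 0.0840). Its receptor Pdgfrb averaged 5.89 ± 0.730 units in LY and 8.57 ± 1.24 units in black ovaries (SD, n = 3 each; log2 difference -0.54, limma adjusted p = 0.135). Kcnj8, a potassium channel of pericytes, differed by -0.33 (adjusted p = 0.188). At 180 days 1 of the 8 had an estimate below 0, against 43.9% of all probes, and the median was 0.06. The summed level of the list was 21.7 to 23.6 units in LY and 27.3 to 32.0 units in black ovaries at 90 days, and 32.4 to 37.0 units in LY and 29.4 to 33.1 units in black ovaries at 180 days. The sum rests mostly on Mcam and Pdgfrb. At 90 days they averaged 7.49 and 5.89 of 22.4 units in LY, and 10.3 and 8.57 of 30.1 units in black.

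Of the 21 other endothelial genes tested, 17 had estimates below 0 at 90 days and 8 at 180 days, beside the shares of all probes just given, with medians of -0.12 and 0.05, and 0 passed the adjusted test. Their summed level was 115 to 129 units in LY and 129 to 142 units in black ovaries at 90 days. Selp, the endothelial selectin that catches leukocytes, averaged 2.41 ± 0.214 units in LY and 1.46 ± 0.0578 units in black ovaries at 180 days (SD, n = 3 each; log2 difference 0.72, limma adjusted p = 0.112). Vwf, the blood clotting protein stored with it, went the other way, with 1.91 ± 0.228 units in LY and 3.28 ± 0.380 units in black ovaries (SD, n = 3 each; log2 difference -0.78, limma adjusted p = 0.131). Sox17, an arterial transcription factor, differed by -0.31 at 90 days (adjusted p = 0.263). Of the Notch and sprouting genes, 0 of 9 passed, with medians of -0.06 at 180 days and 0.02 at 90 days. Notch1 differed by -0.31 at 90 days (adjusted p = 0.242, on 2 LY arrays since the value of the other was missing), Hey1, its target, by -0.25 at 180 days (adjusted p = 0.424), and Jag1, a Notch ligand, by 0.20 at 90 days (adjusted p = 0.425). Of the 4 lymphatic endothelial genes tested, 0 passed, with medians of -0.03 and -0.02 at the 2 ages, and Reln, Pdpn and Prox1 differed by -0.15 to 0.06 at either age.

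Hypoxia response genes, which include inducers of Vegfa, showed 0 of 12 past the adjusted test and 0 past the unadjusted one at either age, with medians of 0.03 at 180 days and -0.05 at 90 days. Egln3, a prolyl hydroxylase, differed by 0.30 at 180 days (adjusted p = 0.448), Vhl, which marks HIF proteins for destruction, by -0.35 at 90 days (adjusted p = 0.421) and Epas1, which encodes HIF-2α, by -0.22 at 180 days (adjusted p = 0.475). Of the other angiogenic factors, 0 of 9 passed, with medians of 0.02 and -0.04. Fgf2 averaged 0.386 ± 0.00919 units in LY and 0.267 ± 0.00360 units in black ovaries at 180 days (SD, n = 3 each; log2 difference 0.53, limma adjusted p = 0.144). Fgf1 averaged 0.410 ± 0.0384 units in LY and 0.802 ± 0.116 units in black ovaries at 90 days (SD, n = 3 each; log2 difference -0.96, limma adjusted p = 0.116). Tgfb1 differed by -0.63 at 90 days (adjusted p = 0.135). Of the inhibitors of angiogenesis, 0 of 6 tested passed, with medians of 0.04 and -0.01. Col18a1, the parent of endostatin, differed by -0.46 at 90 days (adjusted p = 0.195), Timp3, which blocks VEGF-A from Kdr, by -0.34 at 180 days (adjusted p = 0.268), and Thbs2 by 0.42 at 180 days (adjusted p = 0.324).

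**Figure D3:**
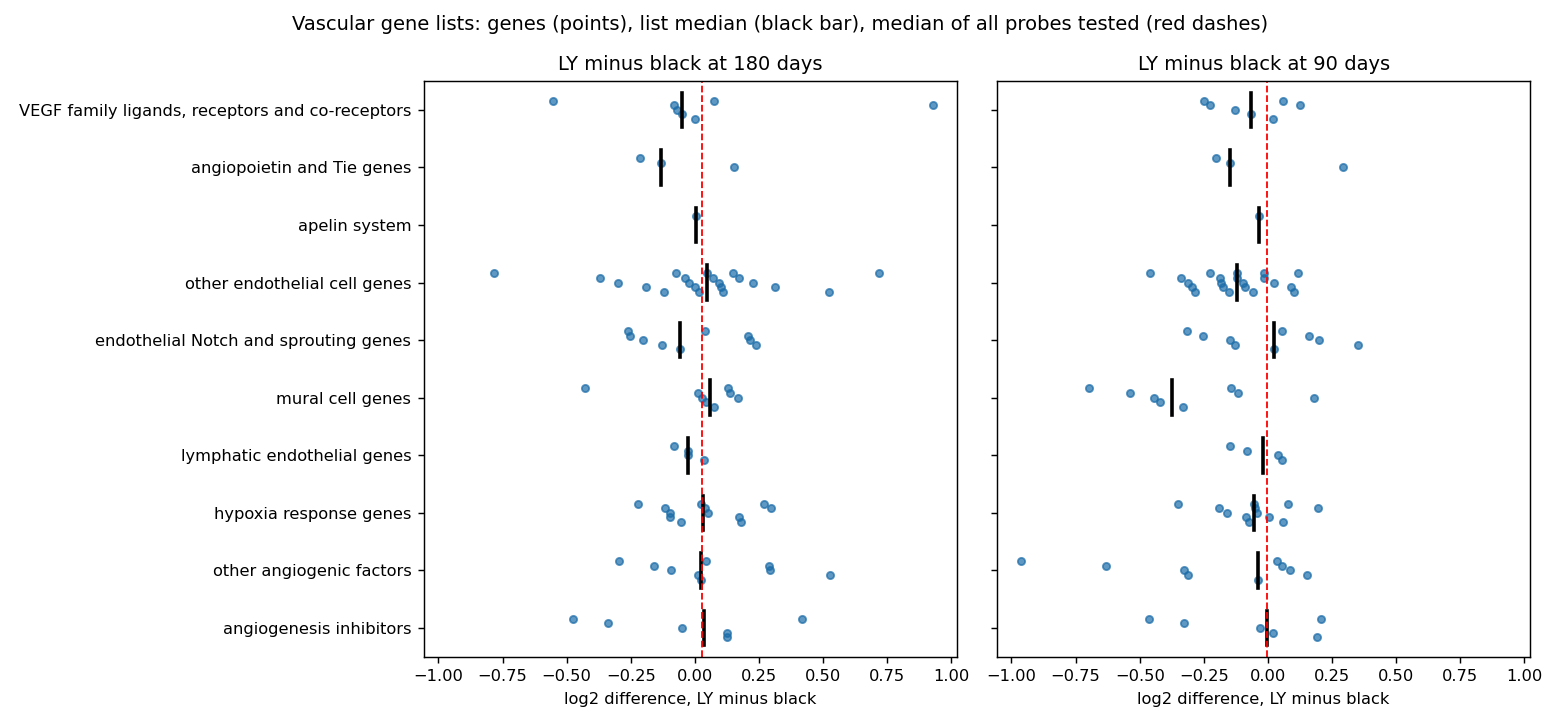
Log2 difference, LY minus black, of each gene tested in the 10 vascular lists at 180 days (left) and 90 days (right), with black bars for list medians and a dashed line for the median of all probes tested. The mural cell list has the median farthest from the dashed line at 90 days, -0.38, and no gene plotted passed the adjusted test.

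Markers of other ovarian cells also differed between the groups, and their part in the vascular values was not tested. At 90 days the summed level of 5 surface epithelium markers was 11.0 to 12.8 units in LY and 15.2 to 16.9 units in black ovaries, and all 5 had estimates below 0. The 3 with the smallest p were Msln (-0.83), Krt19 (-0.69) and Krt8 (-0.50; adjusted p = 0.112, 0.138 and 0.166), and the estimate of Upk3b, dim at 0.160 units in LY and 0.301 units in black ovaries, was larger at -1.22 (adjusted p = 0.374). At 180 days the summed level of 5 granulosa markers was 69.2 to 99.4 units in LY and 103 to 134 units in black ovaries, and that of 6 oocyte markers 35.6 to 50.5 and 53.2 to 69.3 units in LY and black. Inha averaged 66.4 of the 89.3 units of the granulosa sum in LY and 83.1 of 114 units in black, and its arrays overlapped. Zp3 averaged 18.7 of the 42.1 units of the oocyte sum in LY and 31.4 of 60.6 units in black. Estimates were below 0 for 4 of the 5 granulosa and 5 of the 6 oocyte markers, and for 43.9% of all probes. Amh and Zp1 had higher means in LY. The red cell marker Alas2 averaged 3.45 ± 0.752 units in LY and 2.20 ± 0.187 units in black ovaries at 180 days (SD, n = 3 each; log2 difference 0.63, limma adjusted p = 0.210), and Slc4a1, another red cell marker, was under the limit on all arrays of the other 3 groups. Leukocyte markers summed to 0.980 to 4.80 units in LY and 1.21 to 2.43 units in black ovaries at 180 days, and to 0.743 to 1.34 and 0.695 to 0.733 units in LY and black at 90 days, where Adgre1, a macrophage marker, was under the limit on all arrays. Adipocyte markers summed to 10.4 to 12.2 and 8.70 to 22.2 units in LY and black at 180 days, and to 6.60 to 23.4 and 8.88 to 39.4 units at 90 days, while the summed level of the smooth muscle markers overlapped at both ages. Of these, Tagln read 54.8 to 58.6 units in LY and 69.5 to 73.1 units in black ovaries at 90 days, without overlap (log2 difference -0.31, limma adjusted p = 0.488).

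Between the ages more members passed the test than between the genotypes, in a comparison of 6 arrays against 6. Over both genotypes, 180 days minus 90 days passed the adjusted limma test in 6 of 9 members (58.8% of all probes), namely Vegfa, Flt1, Tek, Angpt2, Pecam1 and Apln. All 6 were lower at 180 days, as were 7976 of the 18581 probes that passed. Probes that passed and were lower made up 25.2% of all probes. Flt1 passed the filter only through the 90-day groups, where it was high, so its call is no support for that direction. Pecam1 fell by 1.45 on the log2 scale (SE 0.15, limma adjusted p = 1.05e-05), or 2.73-fold, and Angpt2 by 0.69 (SE 0.09, limma adjusted p = 5.34e-05), or 1.62-fold. Tek fell by 0.39 (SE 0.12, limma adjusted p = 0.0188) and Vegfa by 0.27 (SE 0.06, limma adjusted p = 0.00399). Apln fell by 0.53 (SE 0.18, limma adjusted p = 0.0236), but its mean was 1.38-fold higher at 180 days in LY and 2.74-fold lower at 180 days in black mice, and the call was lost without 90-day LY replicate 3 (log2 difference -0.47) or without 90-day black replicate 2 (-0.49). Flt1, under the limit on all 180-day arrays, was at least 1.19-fold lower at 180 days in LY and at least 1.85-fold lower in black mice by its means against arrays set to 0.2 units. Kdr differed by 0.02 (95% interval -0.13 to 0.17, adjusted p = 0.816) and turned to -0.0073 with quantile normalization, and Aplnr by -0.20 (adjusted p = 0.0760).

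The ratio of means between ages is given for each genotype, and its difference between genotypes, tested above as the difference of the LY effect between ages, passed in no member. Angpt2 at 180 days was 0.631 of its 90-day mean in LY and 0.609 in black mice, and Pecam1 was 0.420 and 0.323 of it in LY and black. Vegfa at 180 days was 0.984 of its 90-day mean in LY mice and 0.696 of it in black mice. Angpt2, Flt1 and Pecam1 had no overlap between ages in either genotype, which 40.5% of all probes showed in a shared direction. Flt1 is no support here, as it passed the filter only through the 90-day groups and read under the limit on every 180-day array. As 58.8% of all probes differed between the ages, and the ages were run as separate array sets, the values between ages are given as a description.

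**Figure D4:**
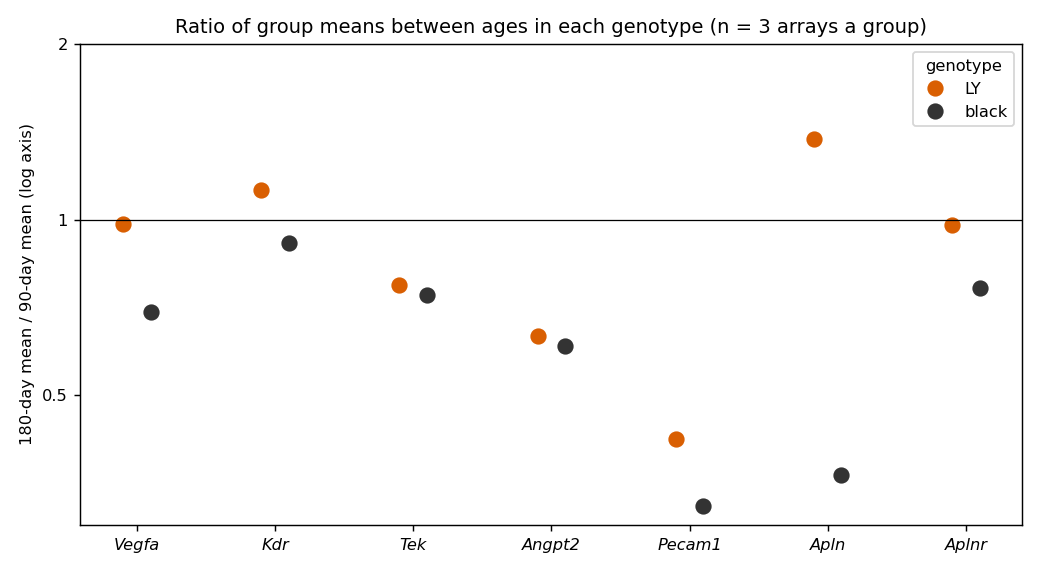
Ratio of the 180-day mean to the 90-day mean (log axis) of the 7 members above the limit on all arrays, in LY and black mice (n = 3 arrays a group). Angpt2 and Pecam1 lie below 1 in both genotypes, Vegfa lies at 0.984 in LY and 0.696 in black, and Apln lies at 1.38 in LY and 0.365 in black.

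The genes with the pattern most like a member's were found by the root mean square difference, over the 12 arrays, of log2 values centred on each probe's mean, among 16019 genes. For Vegfa they were Leng9, Pdlim2 and Setd1a, at 0.06, 0.08 and 0.09. Each had its highest mean in 90-day black ovaries, as Leng9 with 1.27 and 1.20 units in LY and black at 180 days and 1.25 and 1.70 units in LY and black at 90 days. Of the other members the nearest to Vegfa were Aplnr at place 986 and Kdr at place 1162, with Apln at place 12152. For Angpt2 the nearest genes were Llgl1, Edc3 and Chn1, each at 0.11, and among members Tek at place 1077 and Vegfa at place 2446. For Cdh5 they were Xrra1, Tmem215 and Grm5, at 0.52 to 0.56. Cdh5 reached the limit on only 3 of the 12 arrays, so its pattern rests mostly on values under the limit and is given no weight. For Apln, whose nearest genes were looked up after its values were seen, they were F13a1, Hmgcs1 and Xpnpep2, at 0.28, 0.28 and 0.32. Hmgcs1, an enzyme of cholesterol synthesis, averaged 3.11 ± 0.0284 units in LY and 1.67 ± 0.166 units in black ovaries at 180 days and 2.49 ± 0.223 units in LY and 3.60 ± 0.467 units in black ovaries at 90 days (SD, n = 3 each). Xpnpep2, a membrane aminopeptidase, averaged 0.738 and 0.324 units in LY and black at 180 days and 0.404 and 0.822 units in LY and black at 90 days. Likeness over 4 groups of 3 arrays is a description, with no test.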

How the data were processed

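RNA of 12 whole ovaries was hybridized to 1-colour CodeLink arrays, 1 mouse per array. The authors scanned with GenePix, subtracted background with CodeLink software and used GeneSpring to bring slides to a common 50th percentile, and deposited relative intensity on a linear scale. A scaling per gene is also named in the methods, but the deposited intensity does not carry it. On each array 166 to 503 values were absent and 67 to 144 were below 0. No scan dates or probe sequences were used. The number of arrays limits the precision.

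Values were divided by the array median, floored at 0.01 units and log2 transformed, so differences of dim probes depend on this floor. The platform annotation gives 1 gene for 21615 of the 36227 probes, several for 681 and none for 13931. All 10 member names matched the GRCm38.p6 annotation by gene identifier. The 31598 probes whose mean reached 0.2 units in any group were tested with limma 3.58.1 in R 4.3.3 on 4 group means (8 residual and 2.46 prior degrees of freedom), with Benjamini-Hochberg adjustment and a threshold of 0.05. p-values measure the spread between mice of a group. Where a whole group lay under 0.2 units, a fold is a bound against arrays set to 0.2. A list gene with several probes was given by its brightest. Named were every member, up to 3 genes per list (smallest p at either age), the 3 nearest genes of Vegfa, Angpt2 and Cdh5, and agouti. The further Ptprb probes, Upk3b, Tagln, Mcam, Zp3 and the genes nearest to Apln were added after their values were seen. The members and lists were chosen with earlier results of these data known. The procedure was tested on simulated data. The alternatives were other scalings, floors and filters, an intensity trend, array weights, a fit of 1 age, the methods' t-test, the replicate number as a block and leaving out each array.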

Additional observations from a re-analysis of the deposited data

How the results depend on the processing

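Of the counts of members called, 0 at each age, over both ages and for the difference between ages stayed 0 under most alternatives. The methods' t-test without adjustment, at p under 0.05, was an exception, with 2 members at 180 days and 3 at 90 days. Another was the intensity trend, with 1 at 90 days (Vegfa, log2 difference -0.46, limma adjusted p = 0.0439) and 1 for the difference between ages (Apln, 1.85, limma adjusted p = 0.0248). The last was the filter at 0.5 units, with 1 for that difference (Apln, 1.85, limma adjusted p = 0.0453). Over all probes the unadjusted t-test called 4203 at 180 days and 2782 at 90 days. The intensity trend changes the variance model, and the filter changes the number of probes tested. Leaving out single arrays gave 0 members called in these 4 comparisons and 5 to 7 between ages, where the count was 6. Array quality weights took Apln's call between ages away (-0.41).

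Directions turned only for small differences. At 180 days Pecam1 was -0.019 with array quality weights. Leaving out single arrays gave -0.023 to 0.10 for Vegfa, -0.15 to 0.010 for Tek and -0.14 to 0.24 for Pecam1 at 180 days, -0.32 to 0.0097 for Tek at 90 days, -0.015 to 0.28 for Apln over both ages and -0.042 to 0.17 for Angpt2 in the difference between ages (-0.030 with array quality weights). Between ages it gave -0.0064 to 0.054 for Kdr, which was -0.0073 with quantile normalization and -0.035 with no division by the array median. Aplnr, not called between ages, was called with no division by the array median and without 90-day black replicate 3.

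Counts over all probes moved more. Against 14 at 180 days they ran from 0 (the methods' t-test after Benjamini-Hochberg) to 158 (array quality weights), against 14 at 90 days from 1 to 198, against 2 over both ages from 1 to 95 and against 0 for the difference between ages from 0 to 198, the last 3 highs with an intensity trend. The cause was not tested. With quantile normalization the 180-day calls were 15 higher and 4 lower, in place of 13 and 1, and over both ages 1 higher and 2 lower, in place of 1 and 1. Arrays of LY and black mice with the same replicate number were compared by the correlation of their deviations from the group means. It was -0.070 to -0.0049 at 180 days and 0.052 to 0.15 at 90 days. Arrays of unlike number were not compared and a group has 3 mice, so a pairing can be neither shown nor excluded. With the number as a replicate block, 3 probes were called at 180 days, 2 at 90 days, 1 over both ages, 0 for the difference between ages and 18374 between ages, with 0, 0, 0, 0 and 6 members. Signal limits Flt1, Angpt1 and Cdh5, which read under 0.2 units on most arrays, and 3 mice a group limit every difference within an age.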
